A study of Mus musculus with 56 samples.

Results

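The genes described here are 10 macrophage genes measured by RNA-seq in mouse liver, of 21888 gene symbols in the table. They were taken by name, as 5 genes of resident Kupffer cells (Clec4f, Cd5l, Vsig4, Marco and Timd4) and 5 genes grouped as recruited (Trem2, Gpnmb, Cd9, Lyz2 and Cd68), known from macrophages that enter the liver from blood or take up lipid, although Lyz2 and Cd68 are not particular to these cells. The floxed livers, 11 in all, came from mice whose miR-122 gene lies between LoxP sites. The study removed miR-122, the most abundant hepatocyte microRNA, with an rAAV8 vector (a recombinant adeno-associated virus) that carries Cre recombinase. There were 3 uninjected floxed mice (day 0), 3 mice at day 21 and 3 at day 45 after rAAV-Cre, and 1 mouse each at day 100 and day 200, which were joined as the late group. Another 3 livers came from germline miR-122 knockout mice, which never had the microRNA and whose labels name no vector.

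These groups have limits as models. The Ef1a promoter that drove Cre is not particular to hepatocytes. Every injected mouse carried vector and Cre, while the labels of the day 0 and knockout mice name neither. Loss of miR-122 and the vector therefore cannot be told apart. The knockout is a separate mouse line from the floxed mice, so the line and the timing of the loss cannot be told apart. Ages and sex are not given in the labels used here, and age at harvest can differ with the day. Each library is 1 mouse. Whole liver was sequenced, so fewer cells of a type and less RNA per cell cannot be told apart in any value that follows.

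Kupffer cells are the macrophages that line the liver sinusoids. They are seeded before birth, renew themselves in place and clear particles, bacteria and dying cells from portal blood. When they are lost or the liver is inflamed, monocytes enter from blood, and some of these cells take on a lipid-handling state. Clec4f is then gained within weeks of entry, while Timd4 is known as a marker of the embryonically seeded cells that newcomers gain late or not at all.

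The small RNA libraries of the floxed mice give the extent of miR-122 loss. miR-122 took 59.2 to 73.3% of microRNA reads at day 0, 8.22 to 13.2% at day 21, 0.383 to 1.23% at day 45, 4.46% at day 100 and 19.1% at day 200. No small RNA library of the germline knockout was analysed here, and the row of the miR-122 precursor in the RNA-seq table is listed at 0 in all 14 libraries, so it checks no label. From the steps between low values the depth of the RNA-seq libraries is estimated at about 24750000 to 56000000 fragments. Replicates of a group correlated at r = 0.956 to 0.986 across genes, except knockout C, which reached only 0.881 and 0.895 with its replicates, against 0.927 to 0.932 with day 0. Results of the members and main gene lists in the knockout are given with and without it. RNA of the Y-linked gene Ddx3y was at 10.1 to 20.8 FPKM in 4 libraries (day 0 B, day 21 C, day 45 C and knockout C) and at most 0.036 in the others. FPKM are fragments scaled to transcript length and library depth, so levels can be set beside each other between genes.

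The resident genes were highest at day 45 and had lower values in the late livers, while Trem2, Cd9 and Lyz2 were highest in the late livers. All 5 resident genes rose at day 45, by 2.17- to 6.34-fold in mean FPKM, and none passed the test in the late group or in the knockout against day 0. Of the 4 recruited genes with enough signal to test, 3 rose at day 45 and all 4 rose in the late group and in the knockout. Of all genes tested, 23.7% passed as higher at day 45, 28.4% in the late group and 19.3% in the knockout. The fits are limma on log2(FPKM + 1) of the 11354 genes whose mean reached 1 FPKM, all groups fitted together, with an adjusted p (Benjamini-Hochberg) under 0.05 as threshold. Gpnmb had a mean just under that filter, so 9 of the 10 members were tested. Trem2, with a day 0 mean of 0.632 FPKM, reached the filter only through the other groups, so its call is no independent addition to these counts.

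**Figure D1:**
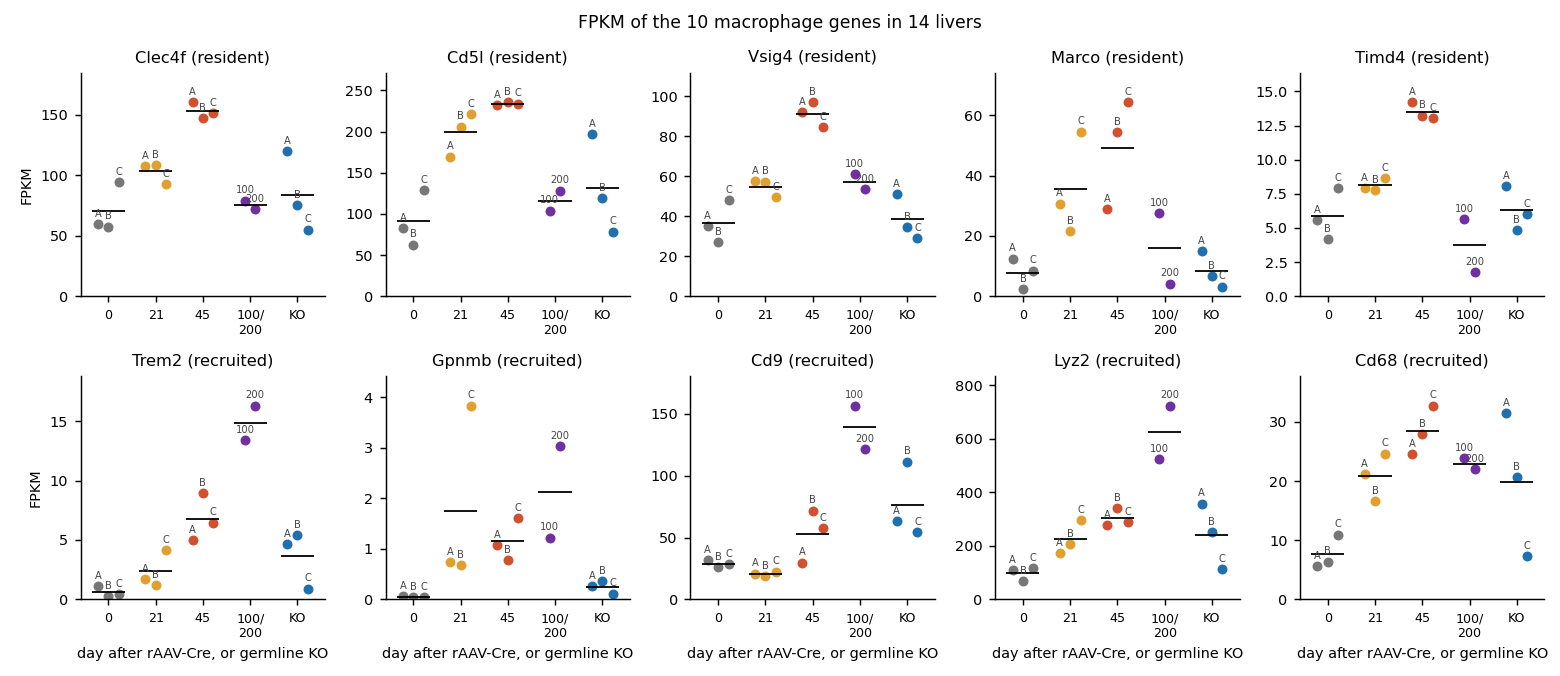
FPKM (y axis, from 0) of each gene in each of the 14 livers, with groups on the x axis, replicate letters or days beside the points and the group mean as a bar. The resident genes (top row) peak at day 45, where Clec4f lies between 148 and 160.5 FPKM, while Trem2 and Lyz2 (bottom row) are highest at days 100 and 200.

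Clec4f encodes a C-type lectin found on Kupffer cells, and Cd5l encodes a secreted protein that protects macrophages from apoptosis. Clec4f (mm9 chr6:83594536-83606110, minus strand) was at 60.0, 57.6 and 94.7 FPKM in the day 0 livers, 108, 109 and 93.0 at day 21, and 160.5, 148 and 152 at day 45. It was at 79.1 at day 100, 72.0 at day 200, and 120.1, 75.4 and 55.1 in knockouts A, B and C. The day 45 livers lay above every other liver, and both late livers lay inside the day 0 range. Against day 0 alone, 40.5% of all genes tested lay wholly above at day 45. Clec4f was 1.14 ± 0.25 higher at day 45 than at day 0 on the log2(FPKM + 1) scale (SE, limma adjusted p = 0.0061).

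Cd5l (mm9 chr3:87161803-87174996, plus strand) was the most abundant resident gene. It was at 82.9, 62.8 and 129 FPKM at day 0, 169.5, 206 and 221 at day 21, 232, 235.5 and 234 at day 45, 104 and 128 in the late livers, and 197, 119 and 78.5 in the knockout. It was the only member past the threshold at day 21, with a log2 fold change of 1.17 ± 0.31 (limma adjusted p = 0.039), where 6.2% of all genes tested passed as higher. That call was lost when any library of either group other than day 0 C was left out, with median centring, and without a filter on low values. At day 45 it was 1.41 ± 0.31 higher than at day 0 (limma adjusted p = 0.0055), and the 3 livers differed from each other by less than 4 FPKM.

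Vsig4, a complement receptor, and Marco, a scavenger receptor for bacteria and particles, mark the capture side of Kupffer cells. Vsig4 (mm9 chrX:93442542-93488777, minus strand) was at 34.9, 27.2 and 48.0 FPKM at day 0, 57.6, 57.2 and 49.5 at day 21, and 92.1, 96.9 and 84.7 at day 45. It was at 60.9 and 53.5 in the late livers and at 51.2, 34.7 and 29.2 in the knockout. Its day 45 change of 1.33 ± 0.22 had the smallest adjusted p of the resident genes (0.0015, limma). In the late group it stayed above every day 0 liver, as did 52.9% of all genes tested. The late difference of 0.66 ± 0.25 for Vsig4 did not pass the test (limma adjusted p = 0.061) and passed without day 0 C.

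Marco (mm9 chr1:122371115-122401661, minus strand) varied most between mice of a group among the resident genes. It was at 12.5, 2.29 and 8.53 FPKM at day 0, 30.7, 21.7 and 54.6 at day 21, 29.0, 54.6 and 64.3 at day 45, 27.6 at day 100, 4.199 at day 200, and 14.9, 6.74 and 3.17 in the knockout. Every liver of days 21 and 45 lay above every day 0 liver, as did those of 25.2% and 40.5% of all genes tested. Its mean rose from 7.78 ± 5.15 to 49.3 ± 18.2 FPKM (SD, n = 3 each) at day 45, a log2 difference of 2.67 ± 0.69 (limma adjusted p = 0.013). This call was lost without day 0 B, which had the lowest value, without day 45 B, and among libraries without Ddx3y RNA.

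Timd4 (mm9 chr11:46624301-46657835, plus strand), a receptor for phosphatidylserine on dying cells, was the least abundant resident gene by group mean. It was at 5.58, 4.19 and 7.90 FPKM at day 0, 7.94, 7.77 and 8.67 at day 21, 14.2, 13.2 and 13.1 at day 45, and 8.04, 4.83 and 5.997 in the knockout. At day 100 it was at 5.65, within the day 0 range, and at day 200 it was at 1.79, below every other liver. The day 45 rise was 1.11 ± 0.28 on the log2 scale (limma adjusted p = 0.013), lost without day 0 B, with quantile normalization and among libraries without Ddx3y RNA. In the late group it was 0.64 ± 0.32 under day 0 on the same scale (limma adjusted p = 0.15), a difference that passed as a fall with median centring, with quantile normalization and without the day 100 liver. That last fit leaves the day 200 mouse alone, with its spread assumed from the other groups, and without the day 200 mouse the value was −0.02.

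All 5 resident genes passed the test at day 45, where 23.7% of all genes tested passed as higher, and their median log2 fold change was 1.33 against 0.20 over all genes. The median over all genes moved with the scaling: the 0.20 at day 45 and the 0.31 in the late group became −0.015 and −0.0018 with median centring and −0.09 and −0.12 with quantile normalization. With quantile normalization 4 resident genes still passed at day 45. Of all genes past the threshold at day 45, 88.8% were higher, against 70.3% with centring and 54.5% with quantile normalization. For the late group the same shares were 89.8%, 67.3% and 49.5%, and for the knockout against day 0 they were 57.2%, 51.3% and 45.3%.

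Trem2 (mm9 chr17:48485726-48491598, plus strand), a lipid receptor that signals through the adaptor Tyrobp, had the largest log2 change of the recruited genes tested at day 45, in the late group and in the knockout. It was at 1.14, 0.304 and 0.456 FPKM at day 0, 1.72, 1.22 and 4.15 at day 21, 4.96, 8.94 and 6.47 at day 45, 13.4 at day 100 and 16.3 at day 200. In the knockout it was at 4.62, 5.42 and 0.904. Each group of floxed mice lay wholly above the preceding one, and knockout C lay inside the day 0 range. Of all genes tested, 25.2% lay wholly above from day 0 to day 21, 27.9% from day 21 to day 45 and 23.7% from day 45 to late. The Trem2 log2 fold change was 2.26 ± 0.43 at day 45 (limma adjusted p = 0.0027) and 3.31 ± 0.48 in the late group (limma adjusted p = 0.0004). Mean FPKM was 10.7 and 23.5 times that of day 0. The day 0 mean of 0.632 FPKM is under the filter, so these calls are a description.

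Gpnmb (mm9 chr6:48986517-49008181, plus strand), a membrane glycoprotein of lipid-laden and phagocytic macrophages, was close to the limit of measurement at day 0. It was at 0.069, 0.046 and 0.046 FPKM there, which at these depths and over its longest transcript is about 14.1, 8.39 and 8.43 fragments. It was at 0.737, 0.681 and 3.84 FPKM at day 21, 1.08, 0.781 and 1.62 at day 45, 1.23 and 3.03 in the late livers, and 0.266, 0.365 and 0.118 in the knockout. All 11 livers outside day 0 lay above all day 0 livers. Of the genes past the main filter, 25.2% lay wholly above day 0 at day 21, 40.5% at day 45, 52.9% late and 21.1% in the knockout. The highest Gpnmb value was in day 21 C, which was also the highest of its group for Cd5l, Marco, Timd4, Trem2, Cd9, Lyz2 and Cd68.

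Gpnmb could be tested with a looser filter, a mean of 0.1 FPKM or more, which left 14104 genes. Its day 0 mean of 0.0537 FPKM is under that filter too, so it was tested only through the other groups and its calls are a description. Its log2 fold change was 1.20 ± 0.34 at day 21 (limma adjusted p = 0.055), 1.02 ± 0.34 at day 45 (adjusted p = 0.041) and 1.51 ± 0.38 in the late group (adjusted p = 0.0082). With that filter 5.74%, 26.9% and 34.7% of genes passed as higher in these comparisons. In the knockout the change was 0.24 ± 0.34 (limma adjusted p = 0.6). Adding 1 to values this low makes the log2 change smaller than the ratio of means, which was 21.6 at day 45.

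Cd9 (mm9 chr6:125410284-125444773, minus strand, overlapping Gm16749), a tetraspanin of lipid-associated macrophages that many epithelial cells and platelets also carry, followed another course. It was at 31.9, 25.8 and 28.5 FPKM at day 0. All 3 day 21 livers were lower, at 20.8, 18.6 and 22.5, as were those of 13.1% of all genes tested. The log2 difference of −0.46 ± 0.31 did not pass the test (limma adjusted p = 0.44). At day 45 Cd9 was at 29.8, 71.8 and 57.4, and day 45 A lay inside the day 0 range. The day 45 change of 0.78 ± 0.31 did not pass (limma adjusted p = 0.083), and passed without day 45 A. It was at 157 and 122 in the late livers, 2.23 ± 0.34 above day 0 (limma adjusted p = 0.00056), and at 63.3, 111 and 54.6 in the knockout.

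Cholangiocyte markers were high in the same groups as Cd9 from day 45 on. At day 21 only Epcam of the 4 was called, while Cd9 lay below day 0. The summed level of Krt19, Krt7, Epcam and Sox9 was 3.68 to 5.23 FPKM at day 0, 7.17 to 8.29 at day 21, 22.2 to 71.1 at day 45, 53.5 to 65.4 in the late livers and 18.3 to 62.6 in the knockout. Day 45 A, which had the lowest Cd9 of its group, also had the lowest Krt19 (5.78 FPKM against 17.5 and 12.3) and Epcam (10.7 against 36.4 and 20.48). Summed platelet markers were at 2.13 to 2.84 FPKM at day 0 and 10.1 to 11.2 in the late livers. In these groups Pf4 had means of 1.545 and 9.24, and Itga2b had means of 0.74 and 0.762. The part of bile duct cells or platelets in the Cd9 result was not tested.

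Lyz2 (mm9 chr10:116714597-116719328, minus strand), the lysozyme of myeloid cells, was the most abundant member by group mean. It was at 109, 68.1 and 118 FPKM at day 0, 172, 208 and 298 at day 21, 279, 341.5 and 289.7 at day 45, 525 and 724 in the late livers, and 358, 250.3 and 113 in the knockout. All livers after rAAV-Cre lay above day 0, with the late livers highest. Of all genes tested, 25.2% lay wholly above day 0 at day 21, 40.5% at day 45 and 52.9% late. The log2 fold change was 1.65 ± 0.37 at day 45 (limma adjusted p = 0.0061) and 2.68 ± 0.41 in the late group (adjusted p = 0.00055). Lyz1, its near-identical paralog, stayed at 1.65 FPKM or less in every liver, and reads shared by the copies make the split between them uncertain.

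Cd68 (mm9 chr11:69477873-69479564, minus strand), an endosomal glycoprotein of all macrophages, was no higher in the late livers than at day 45, unlike Trem2, Cd9 and Lyz2. Over the 14 libraries it correlated at 0.827 with Cd5l, 0.826 with Lyz2 and 0.342 with Cd9, so its place among the recruited genes is one of grouping by name. It was at 5.63, 6.39 and 10.9 FPKM at day 0, 21.1, 16.6 and 24.7 at day 21, 24.6, 27.9 and 32.8 at day 45, 23.9 and 22.0 in the late livers, and 31.4, 20.7 and 7.29 in the knockout. Every liver after rAAV-Cre lay above day 0, as did those of 25.2% of all genes tested at day 21, 40.5% at day 45 and 52.9% late. The day 21 difference of 1.37 ± 0.39 did not pass (limma adjusted p = 0.056). The changes of 1.81 ± 0.39 at day 45 (adjusted p = 0.0054) and 1.52 ± 0.44 in the late group (adjusted p = 0.02) passed. The late call was lost with median centring, with quantile normalization and without day 0 A, day 0 B or the day 200 or day 100 liver.

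**Figure D2:**
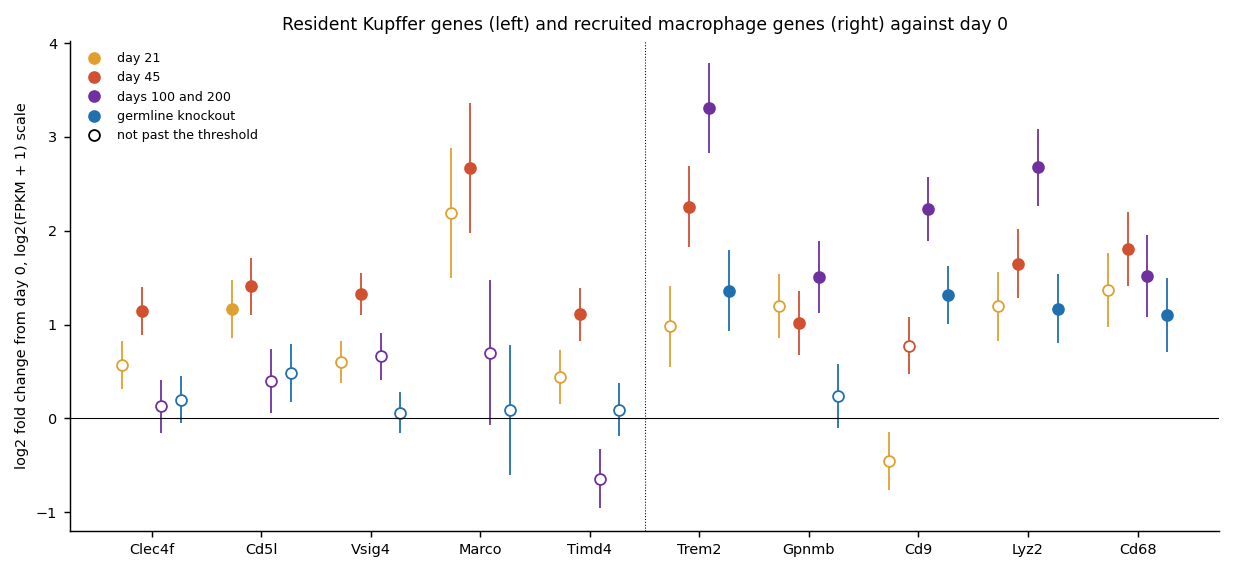
Log2 fold change from day 0 (y axis, log2(FPKM + 1) scale, bars are SE) of each gene at 4 comparisons, filled where the adjusted p was under 0.05, with Gpnmb from the fit with the looser filter. Resident genes (left) are filled at day 45 only, apart from Cd5l at day 21, while the 4 recruited genes other than Gpnmb are filled in both the late group and the knockout.

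In the late group all 4 recruited genes tested passed as higher than day 0, where 28.4% of all genes did. Their median log2 fold change was 2.45, against 0.31 over all genes. Trem2 among them reached the filter only through the other groups. No resident gene passed, and their median was 0.40. The 95% intervals of the limma fit ran from −0.49 to 0.75 for Clec4f and from −0.98 to 2.38 for Marco, and both upper bounds lie under the day 45 estimates of 1.14 and 2.67. The sign of the Clec4f value turned with median centring (−0.18).

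Set directly against day 45, the late livers had lower values of all 5 resident genes, and each late liver lay below each day 45 liver, as did 7.59% of all genes. The log2 differences were −1.01 ± 0.28 for Clec4f, −1.01 ± 0.34 for Cd5l, −0.67 ± 0.25 for Vsig4, −1.97 ± 0.77 for Marco and −1.75 ± 0.32 for Timd4. None passed the test (limma adjusted p = 0.052 for Timd4 and 0.25 to 0.53 for the others), in a comparison of 2 livers with 3 in which only 0.0264% of all genes passed as lower and 0.194% as higher, and 890 genes had an unadjusted p under 0.05. Timd4 passed as lower with the looser filter, with no filter, with either other scaling, without day 45 B and without the day 100 liver.

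No recruited gene passed in the same comparison. Trem2 was 1.05 ± 0.48 higher than at day 45, Cd9 1.45 ± 0.34, Lyz2 1.03 ± 0.41 and Cd68 −0.29 ± 0.44, with limma adjusted p of 0.63, 0.14, 0.55 and 0.98. Both late livers lay above all day 45 livers for Trem2, Cd9 and Lyz2 and below them for Cd68, and 23.7% of all genes lay above in this way. Without day 45 B, Cd9 passed as higher.

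Between day 21 and day 45 no member passed the limma test, and 0.273% of all genes did, with 1811 at an unadjusted p under 0.05. The largest differences were 1.28 ± 0.43 for Trem2 (adjusted p = 0.18) and 1.23 ± 0.31 for Cd9 (adjusted p = 0.1). Cd9 passed without day 45 A, and Trem2 passed among libraries without Ddx3y RNA. Clec4f, Vsig4, Timd4 and Cd5l at day 45 lay above every day 21 liver, as did 27.9% of all genes.

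In the germline knockout, Trem2, Cd9, Lyz2 and Cd68 rose against day 0 and no resident gene passed. Trem2 reached the filter only through the groups other than day 0. The log2 fold changes were 1.36 ± 0.43 for Trem2, 1.32 ± 0.31 for Cd9, 1.17 ± 0.37 for Lyz2 and 1.11 ± 0.39 for Cd68, with limma adjusted p of 0.03, 0.0084, 0.03 and 0.047, where 19.3% of all genes passed as higher. The resident changes were 0.06 to 0.48, none past the test. Cd9 was the only one of the 4 whose knockout livers all lay above day 0, as did those of 21.1% of all genes, and knockout C lay inside the day 0 range for Trem2, Lyz2 and Cd68.

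These knockout calls depended on single libraries. Without knockout C, the values rose to 1.91 ± 0.33 for Trem2, 1.52 ± 0.32 for Cd9, 1.64 ± 0.29 for Lyz2 and 1.67 ± 0.26 for Cd68, and Cd5l also passed at 0.80 ± 0.28 (limma adjusted p = 0.025), in a fit in which 31.7% of all genes passed as higher. Without knockout A, without knockout B or without day 0 B, Cd9 alone passed. Cd68 was also lost without day 0 A and Trem2 without day 0 C. With quantile normalization or no filter, Cd9 and Lyz2 passed, and with median centring Trem2, Cd9 and Lyz2.

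Against day 45, the knockout had lower resident genes and no called difference in recruited genes. Vsig4 was lower by −1.26 ± 0.22, Marco by −2.58 ± 0.69, Timd4 by −1.02 ± 0.28 and Clec4f by −0.94 ± 0.25 (limma adjusted p = 0.0073, 0.041, 0.046 and 0.042), where 8.23% of all genes passed as lower. Cd5l was at −0.92 ± 0.31 (adjusted p = 0.065). All knockout livers lay below all day 45 livers for the 5 resident genes, as they did for 20.6% of all genes. For the 4 recruited genes tested the groups overlapped, and the differences ran from −0.90 (Trem2) to 0.54 (Cd9). Gpnmb lay below day 45 in every knockout liver, and its difference of −0.78 ± 0.34 with the looser filter did not pass (limma adjusted p = 0.13). Sinusoidal endothelial markers were lower in the same comparison, 4 of 5 past the test with a median of −0.98 (−1.02 for the resident genes), and their part in the resident result was not tested. Of the 14 pan-macrophage genes, 5 were lower as well (Msr1, Mpeg1, Ctss, Mertk and Adgre1, median of the list −0.46).

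The median over all genes was −0.23 in that comparison. After median centring only Vsig4 passed, and with quantile normalization Clec4f and Vsig4. The share of all calls that were higher was 12.8% in the fit as reported, 40.0% with centring and 54.9% with quantile normalization. Without any 1 of the day 45 livers or without knockout B, only Vsig4 passed, and without knockout A, Clec4f, Vsig4 and Cd5l did. With only these groups in the fit, no member passed. Without knockout C, the same 4 genes were called, with Vsig4 at −1.09 ± 0.22, in a fit in which 37.5% of all genes passed as lower. The recruited differences were then −0.34 for Trem2, 0.74 for Cd9, −0.014 for Lyz2 and −0.14 for Cd68, none past the test. Of the pan-macrophage genes, 4 then passed as higher and 5 as lower, where 14.6% of all genes passed as higher.

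Averaged over each list on the log2 scale, the livers show the 2 groups of genes in proportion to each other. Relative to the day 0 mean, the resident average was 1.42 to 1.59 at day 45 and the recruited average 1.22 to 1.66. In the late livers the resident average was 0.62 at day 100 and −0.12 at day 200, with recruited averages of 2.14 and 2.36. The recruited less the resident average was −0.30 to 0.31 at day 0, −0.35 to 0.24 at day 21, −0.21 to 0.08 at day 45, 1.52 and 2.48 in the late livers, and 0.62, 1.34 and 0.60 in knockouts A, B and C. Knockout C stood with its replicates in this difference, while its resident (−0.31) and recruited (0.29) averages were themselves close to day 0. Of its recruited genes, Cd9 (54.6 FPKM against 25.8 to 31.9 at day 0) and Gpnmb lay above the day 0 range. Trem2, Lyz2 and Cd68 lay inside it. The averages were formed from members chosen by name, with earlier results of these data known, and carry no test.

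**Figure D3:**
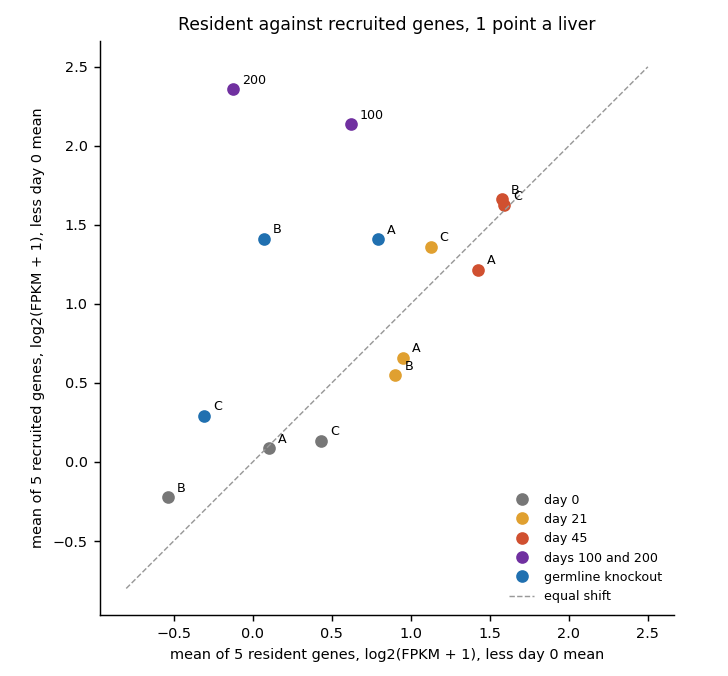
Mean log2(FPKM + 1) of the 5 resident genes (x axis) and of the 5 recruited genes (y axis) in each of the 14 livers, both less the day 0 mean, with a dashed line of equal shift. Days 21 and 45 lie along the line, while the day 100 and day 200 livers and the 3 knockouts lie above it.

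Both lists were also set against the average of 14 genes known from macrophages in general, which is no measure of total macrophage RNA. All 14 rose at day 45 (median log2 fold change 1.46), 10 rose in the late group (median 1.52), and 7 rose and 1 fell in the knockout (median 0.87), against the 23.7%, 28.4% and 19.3% of all genes that passed as higher. Without knockout C, 10 rose and 1 fell (median 1.31). With it, the 14 genes ran from −0.96 to 3.03 in the knockout, against 0.82 to 1.90 at day 45. Their average in the knockout therefore joins unlike changes. The 3 largest called changes at day 45 were those of Ctss, a lysosomal protease, at 1.90, Cd14, the endotoxin co-receptor, at 1.90, and Laptm5 at 1.86. The resident average less the average of these genes was −0.06 to 0.14 at day 45, −0.91 and −1.66 at days 100 and 200 and −1.13 to −0.50 in the knockout. The recruited average less the same was −0.10 to 0.18, 0.61 and 0.82, and 0.03 to 0.21, against −0.29 to 0.18 at day 0. Between the late livers and day 45, no gene of the list passed the limma test, and its median log2 difference was −0.05 against 0.11 over all genes.

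A second list held 8 other genes known from Kupffer cells. At day 45, 5 of 8 rose (23.7% of all genes did), led by Folr2, a folate receptor (1.34), Il18bp (1.20) and Id3, a factor needed for Kupffer cell identity (1.13). In the late group 1 rose (Il18bp, 0.85) and none fell, with a median of 0.35. Late changes in the list ran in both directions, from −1.20 for Cd163 to 0.97 for Id3, and neither of these passed (limma adjusted p = 0.065 and 0.063). Cd163, the receptor that clears haemoglobin, was at 4.04 FPKM at day 100 and 0.525 at day 200, against 3.44 to 8.24 at day 0. Id3 was at 125 to 139 FPKM in the late livers, against 53.0 to 105 at day 0. In the knockout none passed against day 0 (median −0.19), and 5 of 8 fell against day 45, where 8.23% of all genes did: Emr4 (Adgre4), Fcna, Cd163, Spic and Id3. Without knockout C, 2 passed as higher and 2 as lower against day 0, and 6 of 8 fell against day 45.

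Genes of monocytes and of lipid-associated macrophages were read against the 6.2%, 23.7%, 28.4% and 19.3% of all genes that passed as higher at day 21, day 45, late and in the knockout. Of these lists, 6 of the 8 monocyte genes tested, Ccr2 and Ly6c2 among them, and Mmp12 and Ctsk of the lipid-associated genes had day 0 means under the filter and were tested only through the other groups, so the counts are a description. Of 8 monocyte genes tested, 7 rose at day 21, 8 at day 45, 8 in the late group and 7 in the knockout, with or without knockout C. At day 45 the largest were Ly6c2 (2.75), Plac8 (1.87) and Ccr2, the receptor by which monocytes leave bone marrow (1.81). Ccr2 was at 0.481 to 0.875 FPKM at day 0, 3.55 to 6.68 at day 45, and 14.3 and 9.63 in the late livers. Of 14 lipid-associated genes, 8 rose at day 45, 8 in the late group and 7 in the knockout, where Lipa fell (8 and 1 without knockout C), and Syk was not analysed here. Spp1 led them at 3.84, with Mmp12 (2.40) and Capg (2.35). Spp1, which bile duct cells also make, went from 40.9 to 54.6 FPKM at day 0 to 2866 and 1854 in the late livers.

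Csf1 and Il34, the growth factors of Csf1r, and the chemokines Ccl2 and Cx3cl1 all rose at day 45 (1.38, 0.91, 2.11 and 1.71), in the late group and in the knockout, 4 of 4 tested in each, also without knockout C, against 23.7%, 28.4% and 19.3% of all genes. Cx3cl1 had a day 0 mean of 0.286 FPKM, under the filter. Ccl2, the ligand of Ccr2, was at 1.08 to 3.71 FPKM at day 0, 7.98 to 16.2 at day 45 and 43.1 and 19.3 in the late livers. It was the only one called at day 21 (1.78). Csf2 was under 0.1 FPKM in every floxed liver.

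**Figure D4:**
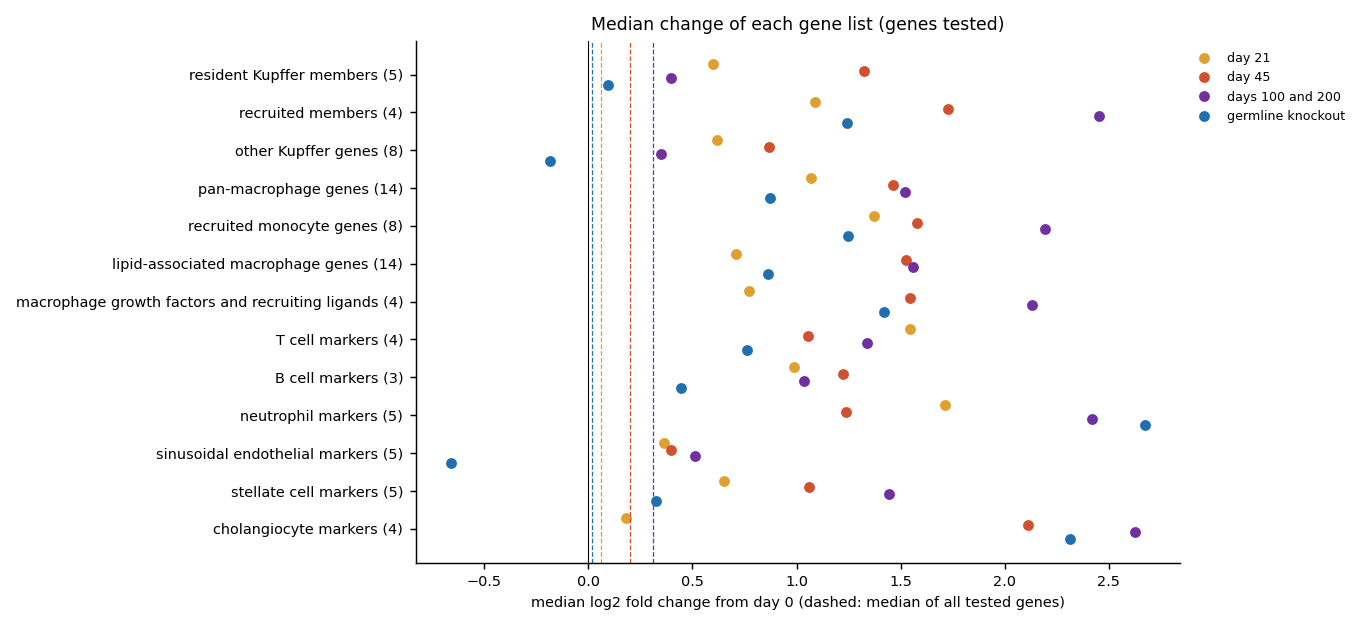
Median log2 fold change from day 0 (x axis) of each gene list (y axis, with the number of genes tested) in the 4 comparisons, with the median of all tested genes as dashed lines. In the late group the resident list sits at 0.40 and the recruited list at 2.45, and in the knockout the resident and other Kupffer lists sit at 0.09 and −0.19.

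RNA of other cell types moved in the same livers, and its part in the macrophage results was not tested. T cell markers passed in 4 of 4 tested at days 21, 45 and late, where 6.2%, 23.7% and 28.4% of all genes passed as higher. Of these markers, Cd3e, Cd3d and Cd8a had day 0 means of 0.246, 0.516 and 0.096 FPKM and reached the filter only through the other groups. The summed level of the T cell markers was 1.16 to 2.87 FPKM at day 0 and 10.1 to 20.3 at day 21. B cell markers passed in 3 of 3 tested at day 45, of which Cd79a and Ms4a1, with day 0 means of 0.642 and 0.447 FPKM, likewise reached the filter through the other groups. At day 45 and in the knockout 23.7% and 19.3% of all genes passed as higher, and Camp, Ngp, Retnlg, Col1a1 and Sox9 had day 0 means under the filter. Neutrophil markers passed in 2 of 5 at day 45 and 5 of 5 in the knockout, with a sum of 4.47 to 19.6 FPKM at day 0 and 32.1 to 179 in the knockout, and Camp and Ngp were under 0.1 FPKM in every day 0 liver. Stellate cell markers passed in 4 of 5 at day 45, sinusoidal endothelial markers in none at day 45 while 3 of 5 fell in the knockout against day 0 (14.5% of all genes did), and cholangiocyte markers in 4 of 4 at day 45. Platelet markers had 1 gene tested, Pf4, at 1.12 at day 45. Summed hepatocyte markers were at 20915 to 23231 FPKM at day 0, 12033 to 18543 in the late livers and 17224 to 26851 in the knockout. These sums include Serpina1a, so they are not alike between groups. Serpina1a is listed at 0 in every floxed liver but day 100 (987 FPKM), and at 1286 to 2036 in the knockout. No hepatocyte marker passed at day 45, and 1 passed as lower in the late group, where 3.21% of all genes did. Alb, which every hepatocyte makes, is listed at 0 in all 14 libraries.

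Among all tested genes, those whose log2(FPKM + 1) followed Clec4f most closely over the 14 libraries were Fcna, Cd5l, Folr2, Vsig4 and Siglec1 (Pearson r = 0.923, 0.922, 0.921, 0.907 and 0.885). Siglec1, a sialic acid receptor of tissue macrophages, had group means of 1.81 FPKM at day 0, 6.01 at day 45, 2.62 in the late group and 1.83 in the knockout. Those most like Trem2 were B3gnt9-ps, Pmp22, Smad7, Mical1 and Meis3 (r = 0.974 to 0.963). None of these 5 is in the macrophage lists. Pairs of resident members correlated at 0.645 to 0.922 and pairs of recruited members at 0.173 to 0.949, and pairs between the groups at −0.354 to 0.827. The libraries share groups and scaling, so these values describe the pattern and carry no test.

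The promoters of the members were searched for GAGGAA on both strands, the core bound by PU.1, the factor of the macrophage lineage. The window runs from 250 bases before to 50 after the start of the gene (RefSeq, GRCm38.p6), and all 10 members had one. It holds GAGGAA in 3 of 5 resident genes (Cd5l, Vsig4 and Marco) and 2 of 5 recruited genes (Trem2 and Cd68), against 28.3% of 32851 promoters of this length. TGACTCA, an AP-1 site, is in Gpnmb and Cd68 and in 5.2% of all promoters. CACGTG, an E-box, is in none of the members and in 7.15% of all. A match is a description of letters. Here are a resident and a recruited promoter, shown because the 2 genes part in the late livers while sharing this motif, which is in capitals and lies on the reverse strand in both.
Cd5l, chr3:87357631-87357930, + strand: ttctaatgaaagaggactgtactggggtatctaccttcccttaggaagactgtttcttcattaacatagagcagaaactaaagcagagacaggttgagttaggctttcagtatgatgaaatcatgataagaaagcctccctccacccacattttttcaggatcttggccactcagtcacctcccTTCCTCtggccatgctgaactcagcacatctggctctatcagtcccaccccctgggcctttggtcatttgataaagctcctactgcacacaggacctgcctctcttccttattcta
Trem2, chr17:48346151-48346450, + strand: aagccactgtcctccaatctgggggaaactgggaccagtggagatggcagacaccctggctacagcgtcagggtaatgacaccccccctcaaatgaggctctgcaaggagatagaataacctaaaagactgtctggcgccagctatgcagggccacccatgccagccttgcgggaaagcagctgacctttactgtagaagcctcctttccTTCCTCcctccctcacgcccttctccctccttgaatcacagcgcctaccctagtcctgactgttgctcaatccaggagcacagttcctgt

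The small RNA libraries of the floxed mice gave another readout in the same study. Of 6 microRNAs of blood cells, miR-223 is abundant in neutrophils and monocytes, miR-142 in all blood cells, miR-155 and miR-146 in activated macrophages and lymphocytes, and miR-342 in blood cells including B cells. The table names hairpins and not arms. The mature arms of those called, with miR-146a-5p beside miR-146b-5p because they share a seed, are printed with the seed (bases 2 to 8) in capitals (RefSeq, GRCm38.p6).
miR-155-5p: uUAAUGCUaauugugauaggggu
miR-155-3p: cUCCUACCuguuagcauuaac
miR-223-5p: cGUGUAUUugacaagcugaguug
miR-223-3p: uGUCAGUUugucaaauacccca
miR-342-5p: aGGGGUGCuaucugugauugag
miR-342-3p: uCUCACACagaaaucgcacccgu
miR-146b-5p: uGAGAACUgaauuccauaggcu
miR-146b-3p: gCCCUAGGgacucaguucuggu
miR-146a-5p: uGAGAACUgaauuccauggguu

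RPM (reads scaled to library depth) were taken over all microRNA reads except miR-122, and limma was run on 253 microRNAs. miR-155 was at 64.8, 43.6 and 52.5 RPM at day 0 (14, 11 and 13 reads), 477, 249 and 483 at day 21, and 277, 305 and 431 at day 45. No liver of either day overlapped day 0, and the share of all 253 microRNAs without such overlap is not given here. It rose by 2.84 ± 0.68 at day 21 and 2.62 ± 0.68 at day 45 (limma adjusted p = 0.016 and 0.0073).

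miR-342 was at 83.5, 115 and 101 RPM at day 0, 475, 1147 and 2563 at day 21, and 1121, 357 and 339.6 at day 45, again without overlap. It rose by 3.49 ± 0.65 and 2.37 ± 0.65 (limma adjusted p = 0.0042 and 0.011). miR-223 was at 598, 340.5 and 335 RPM at day 0, 741, 4715 and 1987 at day 21, and 983, 1129 and 643 at day 45. It rose by 2.22 ± 0.59 at day 21 (limma adjusted p = 0.027), and its 1.13 ± 0.59 at day 45 did not pass (adjusted p = 0.25).

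miR-146b rested on 2 to 6 reads a liver at day 0 and 11 to 33 at day 45, and its change of 2.23 ± 0.73 passed at day 45 (limma adjusted p = 0.034). miR-142 and miR-146a did not pass at either day. Some of these calls turned on a setting or library. At day 21 miR-155 was lost with median centring, without day 0 C and without day 21 C, and miR-223 with centring, with pseudocount 10, with only these groups and without day 0 A or C or day 21 B or C. At day 45 miR-146b was lost with centring, with a looser filter, with only these groups and without day 0 A, day 45 A or day 45 B, and miR-342 without day 45 A. As reported, 3 of 6 passed at day 21, where 5.14% of all microRNAs passed as higher, and 3 of 6 at day 45, where 20.2% did. At days 100 and 200, with 1 liver each and no test, miR-146b was at 352 and 325 RPM, miR-223 at 1845 and 1036, and miR-155 at 862 and 418. In the same livers miR-342 was at 348 and 493 RPM, miR-142 at 17951 and 6845, and miR-146a at 642 and 852. Over all reads with miR-122 included, 5 of 6 passed at day 21 and 6 of 6 at day 45, a scale on which every other microRNA gains as miR-122 falls.

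**Figure D5:**
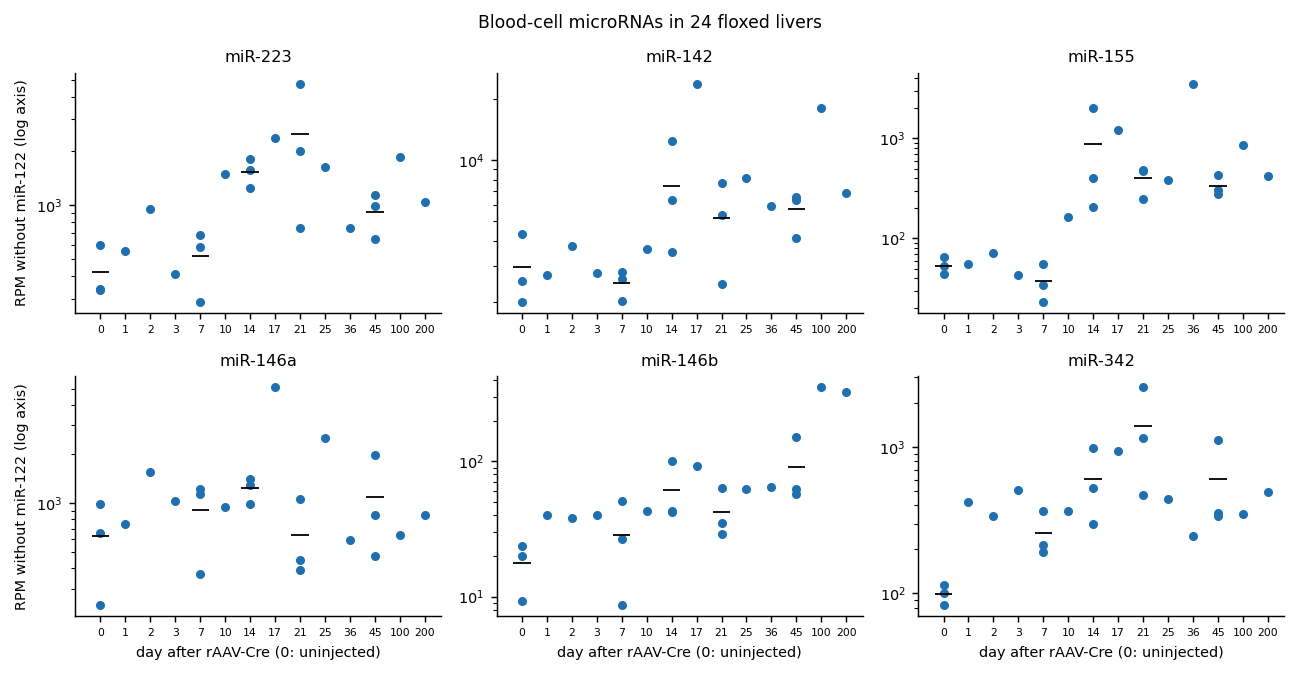
RPM without miR-122 (y axis, log scale) of 6 blood-cell microRNAs in each of the 24 floxed livers by day after rAAV-Cre (x axis, evenly spaced), with bars at the mean of days that have 3 mice. miR-155 and miR-342 lie above the day 0 range in every liver of days 21 and 45.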

How the data were processed

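RNA-seq of 14 livers and small RNA-seq of 15 floxed livers in the fit (24 shown) were used. The members and gene lists were chosen with earlier results of these data known. The authors sequenced poly-A RNA as paired reads, aligned it to mm9 with TopHat and deposited FPKM from Cufflinks 2.2.1, with quartile scaling, after dropping rRNA, snoRNA and mitochondrial reads. FPKM are not counts, so no count model was run. For small RNA the authors aligned reads to mouse microRNAs with Bowtie 0.12.7 and deposited RPM with 1 added, which was removed, and no count test was run on them. Small RNA libraries hold 80096 to 866319 reads.

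Rows sharing a symbol were summed. limma 3.58.1 in R 4.3.3 (lmFit, contrasts, eBayes with trend) was run on log2(FPKM + 1), and on log2(RPM + 1) of microRNAs whose mean reached 10 RPM over days 0, 7, 14, 21 and 45. p-values were adjusted over all features of a comparison. The single genes named are the 10 members, Lyz1, up to 3 called genes with the largest change at day 45 in each list, the 5 genes most like Clec4f and Trem2, and markers at 0. One marker of the lists is not reported here, and 1 gene each of the lipid-associated, T cell and neutrophil lists was not analysed here. Other genes of the lists, and Ddx3y, were named after their values were seen. The code of the fits was tested on simulated data. Alternatives were other pseudocounts, filters, scalings, samples, a replicate block and each library left out, and, chosen after seeing the data, a term for Ddx3y RNA and only libraries without it. Tables were made with Python 3.11.15, numpy 2.4.6 and pandas 2.3.3.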

Additional observations from a re-analysis of the deposited data

Results flagged for a closer look

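In 4 resident genes the response differed between the knockout and adult loss of miR-122 by a test of the difference itself, the knockout against day 45: Clec4f (−0.94 on the log2 scale), Vsig4 (−1.26), Marco (−2.58) and Timd4 (−1.02), where 8.23% of all genes passed as lower. Sinusoidal endothelial markers were lower there too, 4 of 5 with a median of −0.98, and their part was not tested. Both sets of mice are also compared with the same 3 day 0 livers, so their changes from day 0 share those libraries. Vector, mouse line and age cannot be told apart from the timing of the loss. After median centring, or without any 1 of the day 45 livers or knockout B, Vsig4 passed alone. Without a filter or with quantile normalization 2 passed, and with only these groups in the fit 0 did.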

How the results depend on the processing

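Of 132 recomputed counts of members or microRNAs past the threshold, 91 stayed within 1.5 times the reported count. The cause of the others was not tested. At day 21 against day 0 (1 member as reported) 2 passed with pseudocount 0.1, quantile normalization or a term for Ddx3y RNA, 4 with only these groups, and 0 without a filter, with median centring or with the replicate block, and 0 to 1 with a library left out. At day 45 against day 0 (8), leaving out a library gave 6 to 9, and in the late group (4) 3 to 5. In the knockout against day 0 (4) 2 passed without a filter or with quantile normalization, 1 with only these groups or with the replicate block, and 1 to 5 with a library left out. For day 45 against day 21 (0) it was 1 among libraries without Ddx3y RNA and 0 to 1 with a library left out. For the late group against day 45 (0) it was 1 with the looser filter, no filter, quantile normalization or centring, and 0 to 2 with a library left out. For the knockout against day 45 (4) it was 2 without a filter or with quantile normalization, 1 with centring, 0 with only these groups, 3 with the replicate block and 1 to 4 with a library left out. Of the microRNAs at day 21 (3), 5 passed with miR-122 reads included, 1 with centring and 1 to 3 with a library left out, and at day 45 (3) 6 and, with a library left out, 1 to 3.

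Values whose sign turned all belong to results that did not pass. With median centring these were Clec4f in the late group (−0.18) and miR-146a at day 21 (−0.37). In the knockout against day 0, Marco was −0.00827 with quantile normalization, and Marco and Timd4 were −0.0342 and −0.077 among libraries without Ddx3y RNA. With a library left out, the knockout values ran from −0.095 to 0.46 for Clec4f, −0.16 to 0.27 for Vsig4, −0.50 to 0.56 for Marco and −0.094 to 0.29 for Timd4, below 0 without knockout A in each and without day 0 B in all but Clec4f. Marco in the late group ran from −0.53 without the day 100 liver to 1.93 without the day 200 liver, and miR-146a at day 21 from −0.49 to 0.54, below 0 without day 0 C or day 21 A.

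The replicate letters did not pair the mice: 8 of 18 same-letter pairs deviated together at r over 0.1, and 12 of 36 libraries correlated best with their own letter in another group. The replicate block lost Cd5l at day 21, Trem2, Lyz2 and Cd68 in the knockout against day 0, and Clec4f in the knockout against day 45, and it does not apply to the late group, which has no letters. The late group has 2 livers, which limits its tests.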
